A study of Mus musculus with 2 samples.

Results

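A set of 6 secreted factor and receptor genes of bone and matrix biology was followed in γδ T cells from mouse spleen: Spp1 (osteopontin), Nov (CCN3), Tnfsf11 (RANKL), Tnfrsf11a (RANK), Tnfrsf11b (osteoprotegerin, OPG) and Csf1 (macrophage colony stimulating factor, M-CSF). They were taken by symbol from a read count table of 24091 genes, and all 6 were found, once each. The genes had been chosen because several of them stood far apart between the libraries, so their values below are a description and no test was made on them. The data were RNA-seq counts of total RNA from 2 libraries. The IL-2 expanded library came from sorted γδ T cells that were grown for 5 days with interleukin 2 (IL-2) at 100 U/ml, on plate-bound anti-CD3 antibody and with anti-CD28 antibody in solution, and the freshly isolated library from cells labelled as such. The growth and treatment protocols are worded alike for both libraries, and the freshly isolated cells were taken as uncultured from their treatment label. Receptor stimulation, culture and IL-2 therefore differ together between the libraries and cannot be told apart. The labels give no strain, age, sex or number of mice. With 1 library per group there was no estimate of the spread between samples, and the 95% intervals given are exact (Clopper-Pearson) and reflect nothing but counting error.

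As background, osteopontin is an acidic, secreted glycoprotein of bone matrix that activated T cells and macrophages also release. It binds CD44 and several integrins. RANKL, a ligand of the tumour necrosis factor family made by osteoblasts, stromal cells and activated T cells, drives precursors of the monocyte lineage to become osteoclasts by engaging RANK. OPG is a soluble decoy receptor that captures RANKL, and M-CSF keeps the same precursors alive. CCN3 is a matricellular protein that is known to act on integrin and Notch signalling.

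The upstream sequences of 3 of the genes that were higher in the expanded library are shown first, because they carry different sets of short motifs. Each is the 250 bases before the start site of the gene, 5′ to 3′ on the strand of the gene, from RefSeq on build GRCm38.p6. For Spp1 the reference held 2 start sites, and the one nearest to the deposited start was used. The start sites used for these 3 genes were identical to those of the deposited table. Capitals mark matches to any of 5 motifs, searched on both strands with no overlap between motifs in these sequences. The motif of STAT factors was searched as TTCNNNGAA, with any 3 bases in the middle, and that of AP-1 factors as the heptamer TGANTCA. The core motif of NFAT factors was searched as GGAAA. RUNX factors were represented by the letters ACCACA, and the TATA box by the letters TATAAA.
Spp1: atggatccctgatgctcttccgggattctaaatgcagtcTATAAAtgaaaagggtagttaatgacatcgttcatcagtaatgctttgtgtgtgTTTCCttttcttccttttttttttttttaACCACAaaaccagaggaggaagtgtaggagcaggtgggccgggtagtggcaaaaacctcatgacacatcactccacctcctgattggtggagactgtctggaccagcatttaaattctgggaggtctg
Tnfsf11: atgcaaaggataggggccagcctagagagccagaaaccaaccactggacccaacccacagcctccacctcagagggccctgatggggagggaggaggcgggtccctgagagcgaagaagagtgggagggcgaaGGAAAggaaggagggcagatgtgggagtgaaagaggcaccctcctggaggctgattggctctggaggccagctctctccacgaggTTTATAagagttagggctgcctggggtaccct
Csf1: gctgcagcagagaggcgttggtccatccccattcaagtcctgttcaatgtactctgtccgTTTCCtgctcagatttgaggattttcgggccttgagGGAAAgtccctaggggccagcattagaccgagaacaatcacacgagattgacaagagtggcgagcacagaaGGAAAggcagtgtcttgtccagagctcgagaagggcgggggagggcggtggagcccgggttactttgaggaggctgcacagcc
The Spp1 sequence lies at chr5:104434861-104435110 on the plus strand, that of Tnfsf11 at chr14:78308044-78308293 on the minus strand and that of Csf1 at chr3:107760470-107760719 on the minus strand. The Spp1 window held 1 RUNX match, from -128 to -123 relative to the start site, 1 NFAT core match from -157 to -153 and 1 TATA match from -211 to -206. The Tnfsf11 window held an NFAT core match from -117 to -113 and a TATA match from -32 to -27. The Csf1 window held 3 NFAT core matches and no TATA match. The corresponding window of Tnfrsf11a, with a GC content of 73.6%, held none of the 5 motifs, against GC contents of 43.6% for Spp1, 60.4% for Tnfsf11 and 56.4% for Csf1. Over 21086 windows of the same length for genes of the table, 55.0% held an NFAT core match, 12.1% a RUNX match, 11.2% a TATA match, 6.80% a STAT match and 6.36% an AP-1 match, and the median GC content was 55.6%. None of the 4 windows held a STAT or AP-1 match. A match is a string of letters and was not tested as a binding site. No upstream sequence is shown for Nov and Tnfrsf11b.

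The libraries were of similar depth, with total counts of 22204099 in the expanded and 20379385 in the freshly isolated library. Levels are given as CPM, counts per 1000000 of the TMM-scaled library size, in which 1 count equals 0.0476 CPM in the expanded and 0.0465 CPM in the freshly isolated library. A gene with 0 counts could be present at up to 0.143 or 0.139 CPM (3 counts). Transcripts of the CD3 chains, which mark T cells, were high in both libraries, with summed levels of 2094 CPM in the expanded and 2231 CPM in the freshly isolated library, and none of the 4 was 2-fold apart. Constant genes of the γδ receptor were not analysed here, so the γδ label itself was not checked. Markers of other spleen cells differed between the libraries. The summed level of 17 macrophage markers was 24.5 CPM in the expanded and 1011 CPM in the freshly isolated library, with 11 of them at 0 counts in the expanded and none in the freshly isolated library. Of 10 B cell markers the sum was 9.70 against 948 CPM, with 4 at 0 counts in the expanded library, and of 10 dendritic cell markers it was 21.8 against 519 CPM, with 2 at 0. Osteoblasts and stromal cells are known sources of RANKL, OPG and M-CSF. Their 21 markers in the table summed to 276 CPM in the expanded and 308 CPM in the freshly isolated library. Of these, 4 had a mean of at least 1 CPM. They were Runx2 (140 against 138 CPM), Pecam1 (128 against 163 CPM), Col6a1 (5.90 CPM against 0 counts) and Pdgfrb (0.143 against 4.88 CPM). Another 9 had 0 counts in both libraries, among them the osteoblast genes Sp7, Bglap, Bglap2 and Ibsp and the fibroblast genes Dcn, Lum and Pdgfra. The collagen gene Col1a1 had 4 counts in the expanded and 6 in the freshly isolated library. In bulk RNA, a change in the number of cells of a type and a change in RNA per cell cannot be told apart.

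In the expanded library 5 of the 6 genes were higher by 2-fold or more, a size reached by 22.4% of the 11715 genes whose mean was 1 CPM or above, and 4 were higher by 4-fold or more, a size reached by 8.92%. Tnfrsf11a was the exception. It was lower by 2-fold or more, as were 25.0% of the genes compared, and also by 4-fold or more, as were 13.5%. All 6 passed the 1 CPM filter. The genes were picked from this comparison, so these counts restate the choice and are not support for it. The name under which they were grouped, secreted factors induced in expanded cells, fits 5 of them by direction. RANK is a membrane receptor and was lower, and RANKL is a membrane protein until it is shed.

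**Figure D1:**
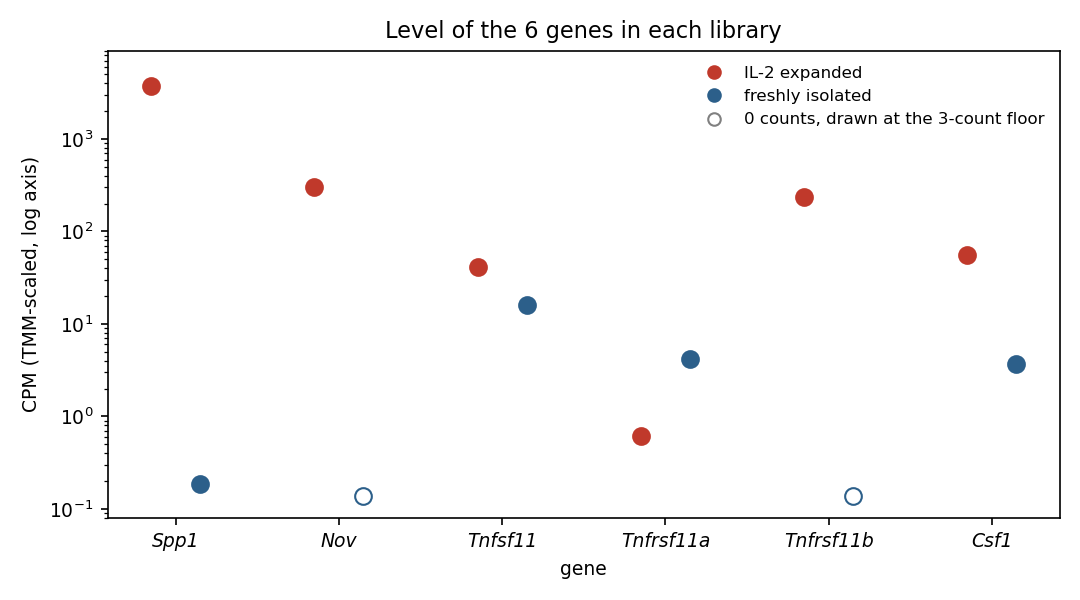
Level of each of the 6 genes in CPM (log axis) in the IL-2 expanded (red, left) and freshly isolated (blue, right) library, 1 library each, with open circles for 0 counts drawn at the level of 3 counts. Spp1, Nov, Tnfrsf11b and Csf1 were higher in the expanded library by 4-fold or more, Tnfsf11 was 2.56-fold higher and Tnfrsf11a was 6.69-fold lower.

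Spp1 (chromosome 5, 104435111 to 104441053, plus strand, build GRCm38) had 78644 counts in the expanded library, against 4 counts in the freshly isolated library. Its level was 3741 CPM in expanded cells and 0.186 CPM in freshly isolated cells, a ratio of 20132 with a counting interval of 7862 to 73889. The ratio rests on 4 counts, so its size is known to within about an order of magnitude. Spp1 was the 9th most abundant gene of the expanded library and took 0.354% of its counts, whereas it ranked 13204th in the freshly isolated library. By log2 fold it was 3rd among the 11715 genes compared (log2 fold 13.71). Within the 6 genes it supplied 85.5% of their summed level of 4373 CPM in the expanded library. In the freshly isolated library the 6 genes summed to 24.2 CPM, and Tnfsf11 supplied 66.7% of that.

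The relatives of osteopontin in the SIBLING family, the phosphoproteins of bone and tooth, were silent. Ibsp, Dmp1, Mepe and Dspp each had 0 counts in both libraries. At the 2-fold size, genes for osteopontin receptors were called about as often as all genes. Of 10 in the table, 8 were compared, of which 2 were higher and 2 lower by 2-fold or more and 4 lay between, against 22.4% higher and 25.0% lower of all genes compared, with a median log2 fold of -0.52 against 0.04 over all genes compared. These 2 higher and 2 lower genes also differed by 4-fold or more. Over all genes compared 8.92% were higher and 13.5% lower by that size. The higher members were the chains of the integrin αvβ3, which recognises the RGD motif of osteopontin. Itgav, the αv chain, was at 394 CPM in the expanded and 69.9 CPM in the freshly isolated library (5.64-fold higher, interval 5.34 to 5.96). Itgb3, the β3 chain, was at 601 against 112 CPM (5.36-fold higher, interval 5.13 to 5.6). The lower members were the α4 and α9 chains, which bind a site next to the RGD motif. Itga4 was at 21.3 CPM in the expanded and 1045 CPM in the freshly isolated library, 49.0-fold lower (interval 44.6 to 53.9), and Itga9 was at 5.66 against 23.4 CPM, 4.13-fold lower (interval 3.37 to 5.08). Cd44 was at 246 against 306 CPM and the β1 chain gene Itgb1 at 583 against 452 CPM, both less than 2-fold apart. Counted per kilobase of exon, Itgb3 stood at 0.713 of Itgb1 in the expanded library (interval 0.696 to 0.731) and at 0.172 of it in the freshly isolated library (interval 0.164 to 0.180).

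Enzymes that cut or phosphorylate osteopontin were scarce. Of 7 in the table, 2 had a mean of at least 1 CPM and both were at least 4-fold lower in the expanded library, as were 13.5% of all genes compared. The gelatinase gene Mmp9 was at 3.0 against 16.8 CPM. The macrophage elastase gene Mmp12 had 0 counts in the expanded library and was at 4.23 CPM in the freshly isolated library, at least 29.6-fold lower. Macrophage markers were lower in the same library, and their part in these values was not tested.

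Nov and Tnfrsf11b had 0 counts in the freshly isolated library. Nov (chromosome 15, 54745928 to 54753761, plus strand; Ccn3 in current nomenclature) had 6320 counts in the expanded library, a level of 301 CPM, at least 2157-fold higher when 3 counts are allowed in the freshly isolated library. It ranked 626th in the expanded library. The other 5 genes of the CCN family, of which Cyr61 and Ctgf are the best known, had 0 counts in the expanded library and between 0 and 7 counts in the freshly isolated library. Nov was the only family member above the 1 CPM filter.

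Tnfrsf11b (chromosome 15, 54250619 to 54278484, minus strand) had 4907 counts in the expanded library, a level of 233 CPM and rank 900, at least 1675-fold higher than in the freshly isolated library. By log2 fold, Nov was 7th (11.64) and Tnfrsf11b 8th (11.28) of the genes compared, values that depend on the prior count of 2 because both genes had 0 counts in the freshly isolated library. Of all genes, 8 had at most 4 counts in the freshly isolated library and at least 200 CPM in the expanded library, limits chosen after the values were seen. These were the granzyme genes Gzmd, Gzmg, Gzme and Gzmf, the gene AA467197, and Spp1, Nov and Tnfrsf11b. Of the 8, Nov and Tnfrsf11b were the 2 with 0 counts in the freshly isolated library.

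**Figure D2:**
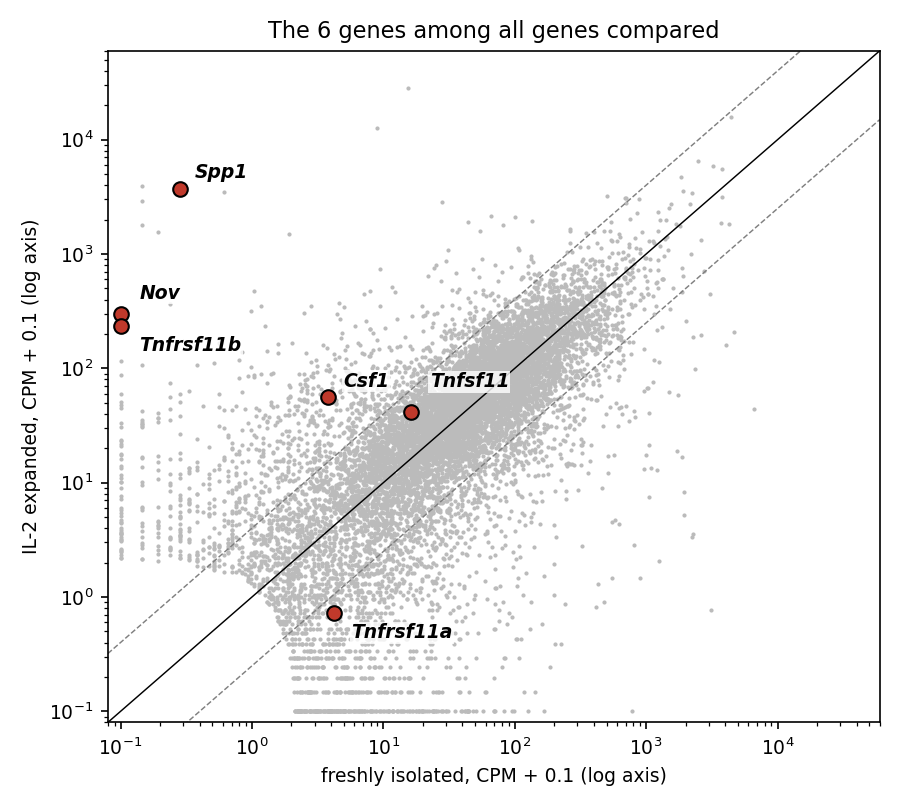
Each point is 1 of 11715 genes, by its level in the freshly isolated (x axis) and the IL-2 expanded library (y axis), both as CPM + 0.1 on log axes, with the 6 genes in red. The solid line marks equal levels and the dashed lines a 4-fold difference. Nov and Tnfrsf11b lie at the left edge with 0 counts in the freshly isolated library, and Tnfrsf11a lies below the lower dashed line.

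The ligand and the receptor that OPG keeps apart differed in opposite directions. Tnfsf11 (chromosome 14, 78277446 to 78308043, minus strand), the RANKL gene, had 867 counts in the expanded and 347 counts in the freshly isolated library. Its level was 41.2 CPM in expanded and 16.1 CPM in freshly isolated cells, 2.56-fold higher (interval 2.26 to 2.91). It was present in both libraries and ranked 1857th of the genes compared by log2 fold. Tnfrsf11a (chromosome 1, 105780723 to 105847981, plus strand), the RANK gene, had 13 counts in the expanded and 89 counts in the freshly isolated library. Its level was 0.618 CPM in expanded and 4.13 CPM in freshly isolated cells, 6.69-fold lower (interval 3.72 to 13.05). Macrophages and dendritic cells are known to express RANK, and their summed markers were also lower in the expanded library (24.5 against 1011 CPM and 21.8 against 519 CPM). Their part in the RANK value was not tested.

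To compare genes within a library, counts were divided by exon length and scaled to a sum of 1000000 (TPM). In the expanded library the order was Spp1 at 7104 TPM, Nov at 328 TPM, Tnfrsf11b at 259 TPM, Tnfsf11 at 57.7 TPM, Csf1 at 33.3 TPM and Tnfrsf11a at 0.323 TPM. In counts per kilobase, Spp1 was 21.7 times Nov (interval 21.1 to 22.2) and Nov 1.27 times Tnfrsf11b (1.22 to 1.31). Tnfsf11 was 1.74 times Csf1 (1.59 to 1.90). Each of these ratios differed from 1 by more than counting error, but the intervals leave out the choice of exon length. In the same library, with the lengths of the deposited table, Nov was at 293 TPM and Tnfrsf11b at 191 TPM. With the longest transcript, Tnfsf11 was at 44.6 TPM and Csf1 at 32.5 TPM. In the freshly isolated library Tnfsf11 came first at 30.1 TPM. Csf1 at 2.93 TPM and Tnfrsf11a at 2.88 TPM followed, with a per-length ratio of Csf1 to Tnfrsf11a whose interval (0.744 to 1.39) includes 1, and Spp1 was at 0.470 TPM.

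Transcripts of the decoy receptor exceeded those of its ligand in the expanded library. Per kilobase, Tnfrsf11b was 4.49 times Tnfsf11 there (interval 4.18 to 4.83). In the freshly isolated library Tnfsf11 was at least 146 times Tnfrsf11b, with 3 counts allowed for Tnfrsf11b. Tnfsf11 per kilobase was 179 times Tnfrsf11a in the expanded library (interval 104 to 337) and 10.4 times in the freshly isolated library (8.25 to 13.3). OPG is also known to bind TRAIL, encoded by Tnfsf10, which was at 98.5 CPM in the expanded and 125 CPM in the freshly isolated library. Per kilobase, Tnfrsf11b was 4.43 times Tnfsf10 in the expanded library (interval 4.21 to 4.67). Lgr4, a further receptor for RANKL, was at 2.14 against 1.49 CPM, a ratio whose interval (0.895 to 2.34) includes no difference.

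All 9 genes in the list of RANKL axis partners were compared. Of these, 2 were higher and 2 lower by 2-fold or more, with 5 between (median log2 fold 0.39). Over all genes compared 22.4% were higher and 25.0% lower. The higher genes were Tnfrsf11b and Tnfsf11, and the lower ones Tnfrsf11a and Mmp14. Because Tnfrsf11b, Tnfsf11 and Tnfrsf11a belong to the chosen set, the counts of this list partly restate that choice. Apart from the 3 genes described above, the member furthest from equal was the membrane protease gene Mmp14, which is known to shed RANKL, at 0.856 CPM in the expanded and 9.52 CPM in the freshly isolated library (11.1-fold lower, interval 6.86 to 19.1). Genes of the signalling cascade below RANK were counted in the same way. Of 21 adaptor, kinase and NF-κB genes, 15 lay within 2-fold, 5 were lower and 1 was higher by 2-fold or more (median log2 fold -0.56). Over all 11715 genes compared, 6164 lay within 2-fold, 25.0% were lower and 22.4% were higher by that size. The higher gene was Gab2, an adaptor that binds RANK, at 37.0 against 7.90 CPM (4.68-fold higher, interval 3.96 to 5.56). The lower ones were led by the adaptor gene Traf5, at 6.52 CPM in the expanded and 47.3 CPM in the freshly isolated library (7.26-fold lower, interval 6.07 to 8.75), and by Map3k14, the kinase NIK of the non-canonical NF-κB pathway, at 26.9 against 105 CPM (3.91-fold lower, interval 3.56 to 4.30).

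**Figure D3:**
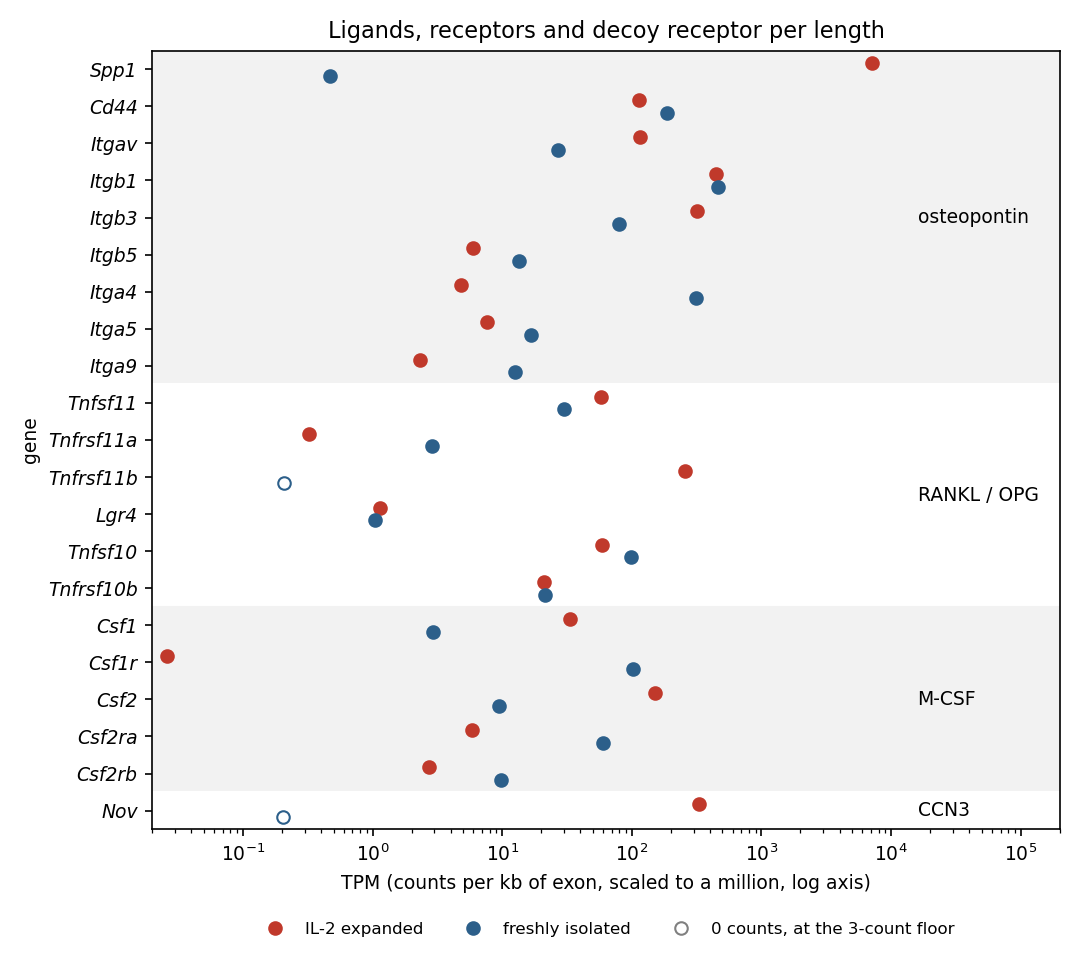
TPM (counts per kilobase of exon scaled to a sum of 1000000, log axis) of ligands, receptors and the decoy receptor of each axis in the IL-2 expanded (red, above) and freshly isolated (blue, below) library, 1 library each, with open circles for 0 counts at the level of 3 counts. Spp1 lies above the 8 receptor genes plotted in the expanded library and below those 8 in the freshly isolated library, and Csf1 and Csf1r lie in opposite orders in the 2 libraries.

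Csf1 (chromosome 3, 107741048 to 107760469, minus strand) had 1180 counts in the expanded and 80 counts in the freshly isolated library. Its level was 56.1 CPM in expanded and 3.72 CPM in freshly isolated cells, 15.1-fold higher (interval 12.04 to 19.2), and it ranked 380th by log2 fold among the genes compared. The gene of its receptor on macrophages, Csf1r, had 1 count in the expanded library and 3044 counts in the freshly isolated library, levels of 0.0476 and 141 CPM. The fold for Csf1r was 2973-fold lower with a counting interval of 533 to 117458. Per kilobase, Csf1r was 34.8 times Csf1 in the freshly isolated library (interval 27.9 to 44.0), whereas Csf1 exceeded Csf1r 1290 times in the expanded library (interval 231 to 51001, with 1 count of Csf1r). Macrophage markers were lower in the same library, with Vcam1 and Sirpa at 0 counts in the expanded library against 166 and 126 CPM in the freshly isolated library, and their part in the Csf1r value was not tested.

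Of the 11 genes of the M-CSF list, 8 were compared, of which 2 were higher and 6 lower by 2-fold or more (median log2 fold -2.27), against 22.4% higher and 25.0% lower of all genes compared. The median was -1.42 with no filter on low genes. Csf1 is among the higher genes and belongs to the chosen set, so the counts and median of this list partly restate that choice. The other higher gene was Csf2, which encodes the granulocyte-macrophage factor GM-CSF, at 38.9 CPM in the expanded and 1.81 CPM in the freshly isolated library (21.4-fold higher, interval 15.6 to 30.4). Per kilobase, Csf2 was 4.57 times Csf1 in the expanded library (interval 4.18 to 5.00) and 3.22 times in the freshly isolated library (interval 2.14 to 4.78). Il34, the alternative ligand of the M-CSF receptor, and Csf3 had 0 counts in both libraries. The receptor gene Csf3r had 0 counts in the expanded library and was at 10.1 CPM in the freshly isolated library, at least 70.6-fold lower.

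Genes of the osteoclast programme were more often lower than higher. Of 16, 10 were compared, of which 6 were lower and 2 higher by 2-fold or more, with 2 between (median log2 fold -1.42), against 25.0% lower and 22.4% higher of all genes compared. The 17 macrophage markers, summing to 24.5 CPM in the expanded and 1011 CPM in the freshly isolated library, were lower with them, and their part was not tested. Acp5, the tartrate-resistant acid phosphatase that marks osteoclasts and also splenic macrophages, was at 8.47 CPM in the expanded and 302 CPM in the freshly isolated library (35.7-fold lower, interval 30.7 to 41.6). The higher members were Itgb3, described above, and the carbonic anhydrase gene Car2 at 101 against 40.8 CPM. The fusion genes Dcstamp and Ocstamp and the calcitonin receptor gene Calcr had 0 counts in the expanded library and 4, 3 and 0 counts in the freshly isolated library.

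Transcription factors reported to act on Spp1 or Tnfsf11 were also counted. Of 20, all were compared, and 10 were lower and 2 higher by 2-fold or more, with 8 between (median log2 fold -1.06), against 25.0% lower, 22.4% higher and 6164 of 11715 between over all genes compared. Vdr, the vitamin D receptor, was at 3.24 CPM in the expanded and 0.650 CPM in the freshly isolated library (4.97-fold higher, interval 2.77 to 9.58). Prdm1, which encodes Blimp-1, was at 66.7 against 21.6 CPM (3.09-fold higher, interval 2.78 to 3.44). The AP-1 subunit gene Fos was at 3.24 CPM in the expanded and 2237 CPM in the freshly isolated library (692-fold lower, interval 545 to 891), and Jun was at 98.8 against 2370 CPM (24.0-fold lower, interval 23.0 to 25.1). Runx2, the master factor of osteoblasts that T cells also express, was at 140 against 138 CPM, with an interval of the ratio from 0.969 to 1.07.

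**Figure D4:**
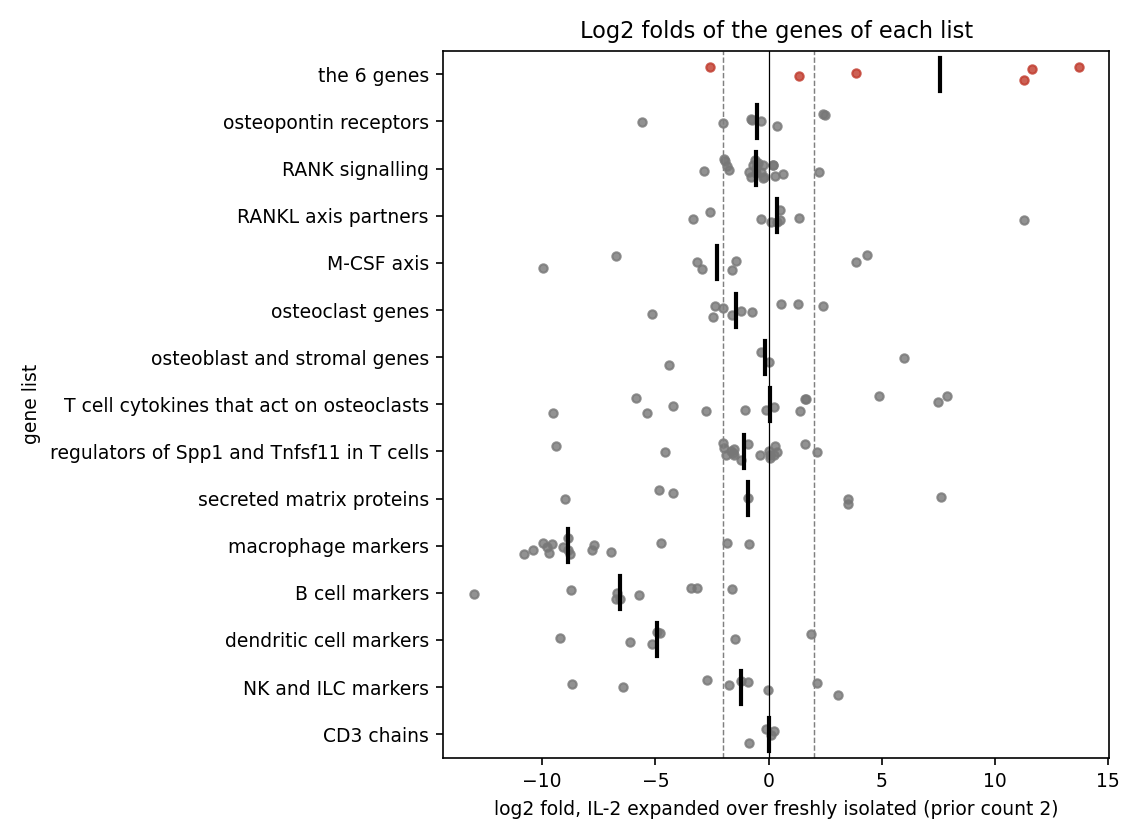
Log2 folds (IL-2 expanded over freshly isolated, prior count 2) of the genes compared in each list that had 3 or more of them, the 6 genes in red, with a black bar at each list's median and dashed lines at a 4-fold difference. The 6 genes were picked from this comparison, so their median of 7.58 restates the choice. It falls between Csf1 (3.88) and Tnfrsf11b (11.28), and the latter value depends on the prior count. The macrophage, B cell and dendritic cell markers had medians of -8.85, -6.58 and -4.93.

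The genes whose levels were most like those of each of the 6 were found by distance in log2(CPM + 0.1) over the 2 libraries, which is a description of 2 values per gene. Nearest to Spp1 were the granzyme genes Gzmd (distance 0.967), Gzmg (1.03) and Gzmc (1.10). Gzmd was at 3920 CPM in the expanded library and had 1 count in the freshly isolated library. Nov and Tnfrsf11b were nearest to each other (0.365), followed for both by Il24 (117 CPM against 0 counts) and Tnfrsf8 (106 CPM against 1 count). Nearest to Csf1 were Eps8 (0.0749), Lxn (0.182) and Hbegf (0.200). Many genes lay close to Tnfsf11, with Larp1b, Mrpl1 and Atp6v1g1 within 0.0374, and the nearest to Tnfrsf11a were Plpp3 (0.10), Shb (0.128) and Fbxo27 (0.168).

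The families of Tnfsf and Tnfrsf genes were taken by symbol once the values were known. They include the chosen genes Tnfsf11, Tnfrsf11a and Tnfrsf11b, so their counts partly restate that choice. Of 18 Tnfrsf genes compared, 6 were higher and 8 lower by 2-fold or more (median log2 fold -0.78), where 22.4% of all genes compared were higher and 25.0% lower. In the expanded library Tnfrsf11b at 259 TPM was below Tnfrsf9 (4-1BB) at 2477 TPM and above Tnfrsf18 (GITR) at 197 TPM. Of 8 Tnfsf ligand genes compared, 4 were higher and 2 lower by 2-fold or more (median log2 fold 0.75), beside the same shares over all genes. There Tnfsf11 at 57.7 TPM was level with Tnfsf10 at 58.5 TPM (per-length ratio of Tnfsf10 to Tnfsf11 1.01, interval 0.936 to 1.10), and Tnfsf8 was at 52.4 TPM and Tnfsf4 at 45.6 TPM.

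Nov and Tnfrsf11b both lie on chromosome 15. Their spans were 467 kb apart, and the 2 genes of the table between them were Colec10, with 0 counts in both libraries, and Mal2, with 6 counts in the expanded library and 0 in the freshly isolated library. On the far side of Nov, Enpp2 was at 1.14 CPM in the expanded and 2.97 CPM in the freshly isolated library. Genes around the others were looked up within 300 kb, a window chosen after the values were seen. The gene next to Spp1, Pkd2, which begins 24.3 kb from the start of Spp1 on the same strand, was at 22.1 CPM in the expanded and 0.604 CPM in the freshly isolated library (36.6-fold higher, interval 21.2 to 69.3). Beyond it on the same side, BC005561 was at 7.61 against 23.0 CPM (ratio 0.330, interval 0.275 to 0.396) and D930016D06Rik at 5.66 against 18.5 CPM (ratio 0.306, interval 0.247 to 0.377), both lower. On the other side lay the 4 silent SIBLING genes. Near Csf1, Ahcyl1 was at 164 CPM in the expanded and 99.6 CPM in the freshly isolated library, within 2-fold. On the other flank Gstm5, a glutathione transferase gene, was at 46.4 CPM in the expanded and 0.325 CPM in the freshly isolated library (143-fold higher, interval 69.0 to 356) and Eps8l3 was at 5.04 CPM against 0 counts. Both Gstm5 and Eps8l3 overlap 4933431E20Rik, which lies between them on the opposite strand, so the division of their counts is uncertain. None of the 6 genes overlapped another gene with counts in the table.

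**Figure D5:**
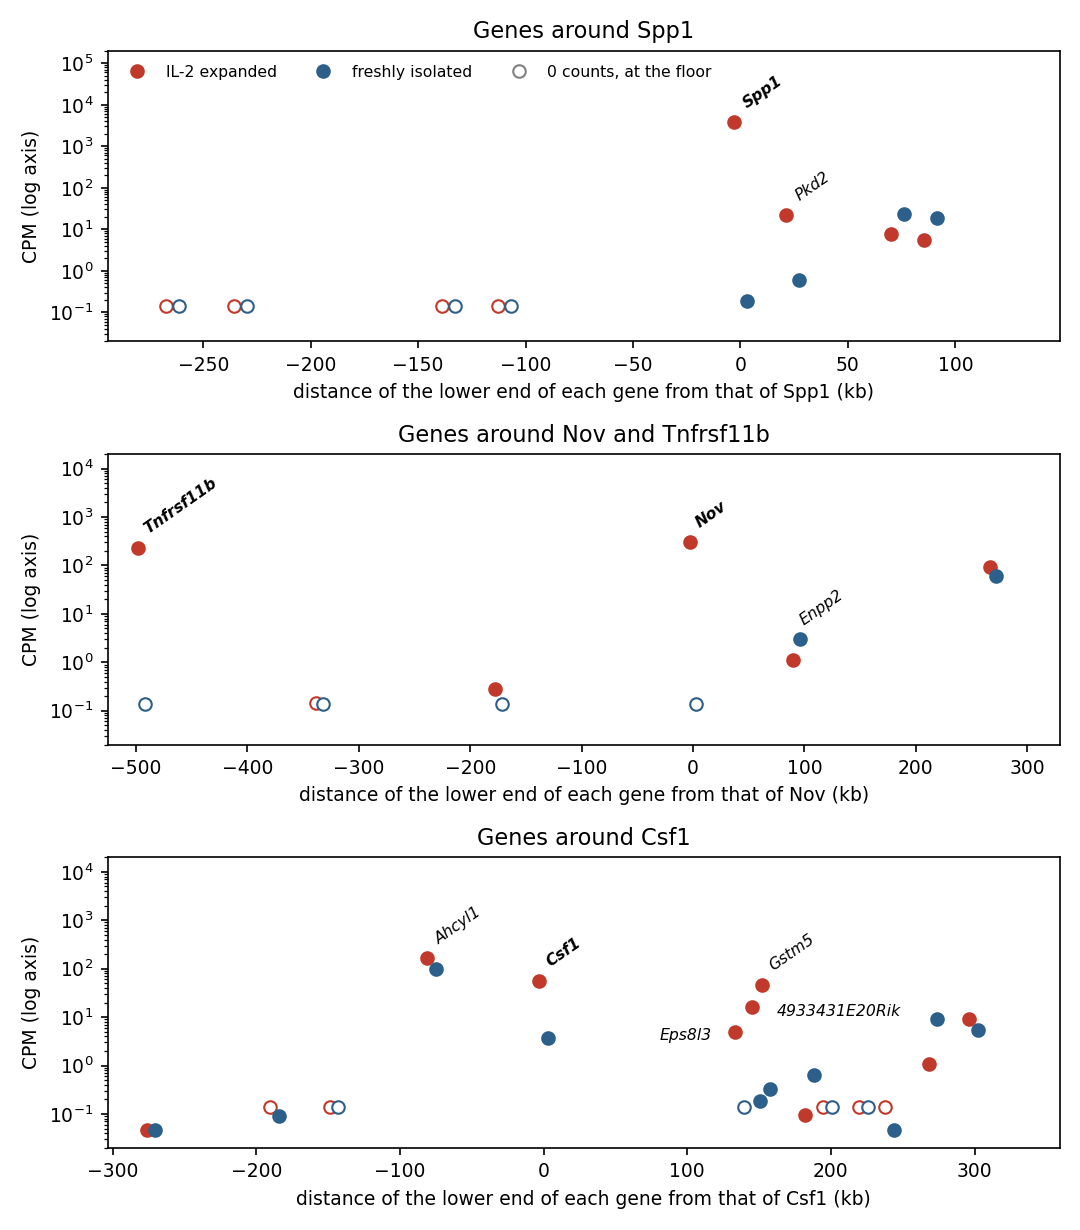
Levels in CPM (log axis) of genes near Spp1, near Nov and Tnfrsf11b, and near Csf1, placed by the distance in kb between the lower ends of the deposited spans, in the IL-2 expanded (red, left) and freshly isolated (blue, right) library, with open circles for 0 counts at the level of 3 counts. Tnfrsf11b and Nov flank 2 genes with at most 6 counts, and Pkd2 next to Spp1 was 36.6-fold higher in the expanded library.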

How the data were processed

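RNA-seq of total RNA from 2 libraries of mouse splenic γδ T cells was analysed, 1 per group. The authors deposited raw counts of reads for each gene as whole numbers, beside gene spans and lengths. The submitters' processing notes name bcl2fastq 2.18.0.12, STAR 2.6.0, HTSeq 0.6.0, edgeR 3.28.1 and the builds mm10 and GRCm38, which are the same assembly. Their settings, the annotation and the use of strand are not given in the notes or labels, so reads of overlapping genes on opposite strands could not be told apart.

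Columns were matched to libraries by name. Counts were divided by TMM-scaled library sizes (edgeR 4.0.16, R 4.3.3) to give CPM. Folds of single genes are plain ratios of CPM with exact 95% Clopper-Pearson intervals (Python 3.11.15, scipy 1.17.1), and log2 folds use a prior count of 2. As reads carried no molecular identifiers, PCR copies count as separate reads in these intervals. Where a library had 0 counts, a floor of 3 counts gave a bound. Genes were compared where the 2 libraries averaged 1 CPM or more (11715 genes). TPM used the union of exons in GENCODE vM21 (GRCm38) and was compared between genes within a library, with 23747 of 24091 genes having a length. With 1 library per group no test was made, and lists were described by how many genes passed a fold size. The calculation was tested on simulated data.

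The members and the 18 gene lists were chosen with earlier results of these data known. The genes named follow a rule: the 6 members, in each list the 2 with the highest and the 2 with the lowest log2 fold, the 3 genes nearest to each member and 7 receptor and ligand genes. Relatives at 0 counts, factors in the middle of a list, symbol families and chromosomal neighbours were named after their values were seen, and some genes are not reported here. Alternatives were 4 other scalings (among them DESeq2 1.42.0 size factors), prior counts of 0.5 and 10, no filter and a 5 CPM filter, and other gene lengths, of which the deposited length was chosen after seeing the data.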

Additional observations from a re-analysis of the deposited data

How the results depend on the processing

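Each of the 6 genes kept its direction under every scaling and prior count tried. Under each of these settings 4 of them were at least 4-fold higher and 5 at least 2-fold higher. The filters change which genes are kept and not the fold of a gene. For Spp1, Nov and Tnfrsf11b, with 4, 0 and 0 counts in the freshly isolated library, no setting tried could have reversed the direction. Over the scalings the log2 fold of Tnfsf11 ranged from 1.19 to 1.35, that of Csf1 from 3.73 to 3.88 and that of Tnfrsf11a from -2.72 to -2.57. With a prior count of 10 the log2 folds were 12.48 for Spp1, 9.32 for Nov and 8.96 for Tnfrsf11b, and with 0.5 they were 14.13, 13.64 and 13.28 in the same order, so for Nov and Tnfrsf11b the prior sets the value. Scaling by total count placed the median of all genes compared at -0.119, against 0.0351 with TMM. With a filter of 5 CPM, which leaves out Tnfrsf11a, 992 genes were at least 4-fold lower, against 1578. For the list of T cell factors that act on osteoclasts, the median was -0.0938 with total count and -0.00815 with upper quartiles. It was -0.0165 without the 50 most abundant genes and 1.62 with the 5 CPM filter. The median of the matrix protein list was -2.56 with that filter, and that of the CCN family was -0.50 with no filter, which takes in 5 genes at 0 to 7 counts. The order of the 6 genes by TPM was unchanged with the longest transcript and with the deposited length. The ratios of Nov to Tnfrsf11b and of Tnfsf11 to Csf1 changed with the length used. No paired analysis was possible because each group had 1 library. The 4, 0 and 0 counts of Spp1, Nov and Tnfrsf11b in the freshly isolated library limit how precisely their folds are known.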

Other observations

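Genes listed as T cell factors that act on osteoclasts went both ways. Of 17 genes, 14 were compared, of which 6 were higher and 6 lower by 2-fold or more. Over all genes compared 22.4% were higher and 25.0% lower. The lower genes included Ctla4, which encodes a receptor and not a cytokine, and Il1a and Il1b, which macrophages express. The counts are therefore not those of T cell cytokines alone. The median log2 fold of 0.06 was below 0 under 3 of the scalings and 1.62 with a filter of 5 CPM, so it gives no direction. Il5 was at 32.8 CPM in the expanded library with 1 count in the freshly isolated library (ratio 705, interval 126 to 27906), and Il13 was at 33.7 CPM with 2 counts (ratio 362, interval 100 to 2999). Il1b, which macrophages express, had 0 counts in the expanded library and was at 69.3 CPM in the freshly isolated library, at least 485-fold lower. Il17a had 0 counts against 5.30 CPM, at least 37.1-fold lower. Macrophage markers were lower in the same library and their part in the Il1b value was not tested.

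Matrix proteins of other families were not uniformly higher. Of 20 genes, 7 were compared, of which 3 were higher and 3 lower by 2-fold or more (median log2 fold -0.91, against 0.04 over all genes compared, of which 22.4% were higher and 25.0% lower). With a filter of 5 CPM the median was -2.56. Col18a1, which encodes a basement membrane collagen, was at 36.9 CPM in the expanded library with 2 counts in the freshly isolated library (ratio 397, interval 109 to 3282), and the laminin chain gene Lamc1 was at 77.6 against 6.64 CPM (11.7-fold higher, interval 9.84 to 13.95). Tgfbi had 0 counts in the expanded library and was at 48.0 CPM in the freshly isolated library, at least 337-fold lower, and the proteoglycan gene Spock2 was at 0.428 against 15.01 CPM (35.05-fold lower, interval 18.2 to 77.3). Among markers of stromal cells Col6a1, a collagen VI chain, was at 5.90 CPM in the expanded library with 0 counts in the freshly isolated library, at least 42.3-fold higher, whereas the pericyte marker Pdgfrb had 3 counts against 105. Among markers of innate lymphoid and NK cells, 5 of 9 compared were lower and 2 higher by 2-fold or more, beside the same shares over all genes. Il1rl1, the IL-33 receptor gene, was at 7.71 against 0.836 CPM.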
